A study of Mus musculus with 16 samples.

Results

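The genes described here are those of haemoglobin and of the red cell: the adult beta globins Hbb-bs and Hbb-bt, the adult alpha globins Hba-a1 and Hba-a2, the haem-making enzyme Alas2 and the red cell anion exchanger Slc4a1. They were chosen by name, and 6 of the 7 genes listed were matched among 47311 annotated genes, all 6 also passing the filter on low counts that kept 16154 genes. Ahsp, the alpha globin chaperone, was not analysed here. They were read in bulk RNA of 16 breast tumours, each from its own mouse. All mice were female C57BL/6J animals kept on a high fat diet (60% of calories as fat) between 8 and 26 weeks of age. Each carried an orthotopic, syngeneic graft of E0771-luciferase cells, a mouse mammary cancer line with a luciferase reporter, placed as 250000 cells in 25% matrigel in mammary gland 4. In 8 mice the treatment was anti-PD-1, an antibody against the T cell receptor PD-1, and in 8 mice it was the isotype control IgG2a. Either antibody was given at 200 ug into the peritoneum every 3 days, starting 3 days after the graft and ending at 21 days. The design sets tumours under checkpoint blockade against tumours under the control antibody in obese mice, and the red cell genes are read here as a measure related to the blood in each sample. Of the host, each sample can hold blood, vessels and tissue around the graft, and perfusion before excision is not mentioned in the labels.

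Haemoglobin is a tetramer of alpha and beta chains, each holding a haem, and red cells make both chains in near balance. Alas2 carries out the first step of haem synthesis in red cell precursors, while Alas1 serves that step in other tissues. Slc4a1, also called band 3, exchanges chloride for bicarbonate and anchors the membrane skeleton. Circulating red cells of mammals have no nucleus, but young ones, the reticulocytes, still carry globin RNA, so the globin RNA of a solid tissue is commonly read as a sign of the blood in it. Adult mice of the C57BL/6 strain use Hbb-bs and Hbb-bt as their beta genes. On the GRCm38 build Hbb-bs (ENSMUSG00000052305) lies at chr7:103826534-103828096 and Hbb-bt (ENSMUSG00000073940) at chr7:103812524-103813996, both on the minus strand. Hba-a1 (ENSMUSG00000069919) lies at chr11:32283511-32284465 and Hba-a2 (ENSMUSG00000069917) at chr11:32296489-32297298, both on the plus strand. Alas2 (ENSMUSG00000025270) lies at chrX:150547375-150570638 on the plus strand and Slc4a1 (ENSMUSG00000006574) at chr11:102348824-102366203 on the minus strand.

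The tumours had 59036535 to 82591064 estimated reads each. Anti-PD-1 replicate 6 stood apart with 38993 transcripts detected, against 47997 to 55476 in the other 15. IgG2a replicates 3 and 7 stood apart in tissue markers, which are given beside the results they touch. Of the markers of the grafted tissue, looked up after the other values were seen, the epithelial keratin Krt8 had 45.1 to 107 CPM (counts scaled to 1000000 per library) and the mesenchymal filament Vim 2827 to 6275 CPM. The epithelial genes Krt18, Epcam and Cdh1 had medians of 2.15, 1.90 and 1.68 CPM over the 16 tumours, and IgG2a replicate 7 was the highest in each, at 103, 48.0 and 53.3 CPM. The same tumour had the highest Krt8, at 107 CPM, and the lowest Vim, at 2827 CPM against a median of 5398.5. The luciferase reporter was not analysed here.

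One IgG2a tumour held far more globin RNA than all others. Over the 8 anti-PD-1 tumours the 4 globin genes took 44.2 reads per 1000000 reads (RPM) in the lowest tumour, 186 in the highest and 0.00984% of reads at the median. Over the 8 IgG2a tumours they took 37.4 RPM in the lowest and 24148 in the highest, with a median of 0.0101% of reads. The highest, IgG2a replicate 7, gave 2.41% of its reads and 9.22% of its TPM, a per-length scale in which a tumour's transcripts add up to a fixed total, to the 4 genes. IgG2a replicate 3 came next with 782 globin RPM, and IgG2a replicate 4 followed with 215. The other 13 tumours, with every anti-PD-1 tumour among them, lay between 37.4 and 186. In bulk RNA more red cells, more reticulocytes among them and more globin RNA per cell cannot be told apart.

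Of the beta globins, Hbb-bs had 7.90 CPM in the lowest, 28.2 at the median and 62.0 in the highest anti-PD-1 tumour, against 12.4, 32.1 and 9185 CPM in the IgG2a tumours. Hbb-bt, the weaker of the adult beta genes in these tumours, had 2.20, 5.68 and 14.6 CPM under anti-PD-1, against 3.13, 8.27 and 1770 CPM under IgG2a. IgG2a replicates 3 and 7 exceeded every anti-PD-1 tumour in both genes, as did IgG2a replicate 4 in Hbb-bs, and the other IgG2a tumours lay within the anti-PD-1 range. Of the alpha globins, Hba-a1 had 9.40, 18.4 and 44.2 CPM under anti-PD-1, against 5.96, 18.1 and 4153 CPM under IgG2a. Hba-a2 had 19.2, 41.2 and 74.6 CPM under anti-PD-1, against 15.7, 40.3 and 10215 CPM under IgG2a. The medians of the groups were thus close in both alpha genes, and the highest values again came from IgG2a replicate 7. Alas2 had 0.58, 0.71 and 2.63 CPM under anti-PD-1, against 0.37, 1.48 and 383 CPM under IgG2a. Slc4a1 was the scarcest, with 0, 0.21 and 0.52 CPM under anti-PD-1, against 0.03, 0.52 and 29.0 CPM under IgG2a. In reads, Slc4a1 had 0 to 40 per anti-PD-1 tumour, against 2 to 212 per IgG2a tumour other than replicate 7 and 1801 in that tumour. Its 0 was in anti-PD-1 replicate 6, and its second highest value, 212 reads or 2.84 CPM, was in IgG2a replicate 8, which was not high in globin.

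**Figure D1:**
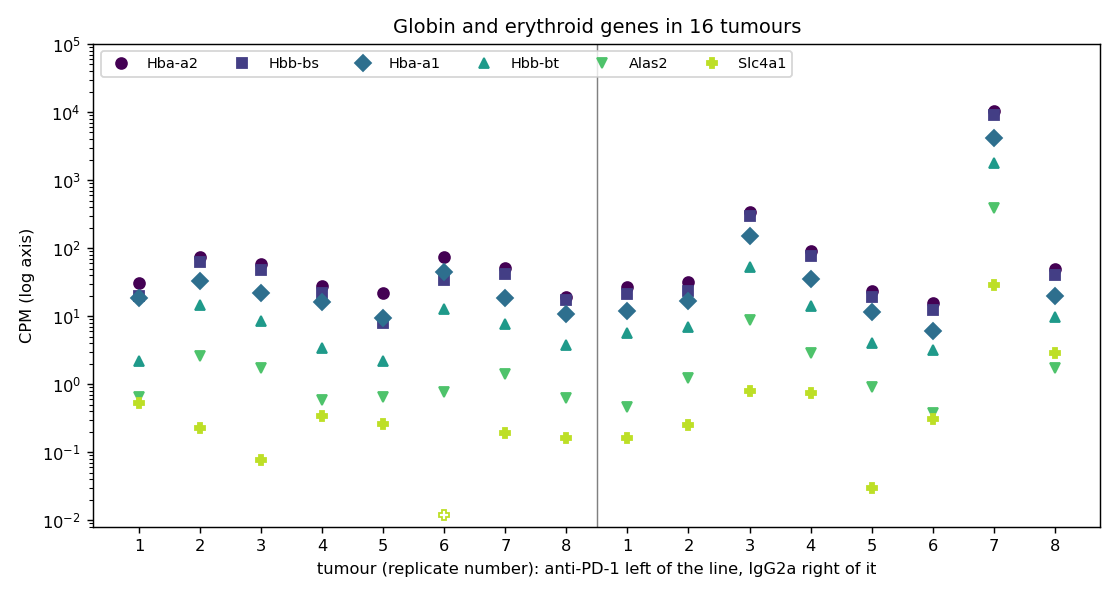
CPM of the 6 genes on a log axis in each tumour, anti-PD-1 left of the line and IgG2a right of it, with numbers for replicates. The hollow mark at the lower edge is Slc4a1 at 0 reads in anti-PD-1 replicate 6. IgG2a replicate 7 is highest for every gene, at 9185 CPM of Hbb-bs, and IgG2a replicate 3 is next for all but Slc4a1.

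On the per-length scale of TPM the order of the levels was nearly fixed. Hba-a2 stood above Hbb-bs in 16 of 16 tumours, Hbb-bs above Hba-a1 in 13, Hba-a1 above Hbb-bt in 16, Hbb-bt above Alas2 in 16 and Alas2 above Slc4a1 in 15. The TPM medians over all 16 tumours were 145 for Hba-a2, 75.6 for Hbb-bs, 73.0 for Hba-a1, 18.7 for Hbb-bt, 0.95 for Alas2 and 0.10 for Slc4a1. Hbb-bs and Hba-a1, the neighbours whose order changed in 3 tumours, ranged over 21.7 to 33953 TPM and 25.4 to 17026 TPM. Of the other haemoglobin genes, chosen for the text after their values were seen, the embryonic Hbb-y and Hbb-bh1 and the related Hbb-bh0 and Hbb-bh2 had 0 reads in all 16 tumours. The embryonic alpha-like gene Hba-x had 2 reads in 1 tumour.

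Hbb-bt, both alpha globins and Alas2 followed Hbb-bs from tumour to tumour, while Slc4a1 followed it less closely. Over the 16 tumours Spearman's rho of log2 CPM with Hbb-bs was 0.96 for Hba-a2, 0.93 for Hbb-bt, 0.91 for Hba-a1 and 0.89 for Alas2, against 0.36 for Slc4a1. Over the 15 tumours without IgG2a replicate 7 these were 0.96, 0.91, 0.90 and 0.87, against 0.22 for Slc4a1. These are descriptions over tumours that share library depth with each gene, and reads can be divided among the globins of a kind. For scale, 95% of 13888 protein-coding genes lay between -0.49 and 0.49 over the 16 tumours. Outside the globins and Alas2, the genes with the highest rho over the 16 tumours were Bbs2 at 0.81, Copg2 at 0.79 and Fech at 0.77, followed by Lvrn, Spast, Adhfe1, Ccni, Zfp119a, Lnx1 and Zfp994 at 0.75 to 0.74. Fech is ferrochelatase, which puts iron into haem. Without IgG2a replicate 7 the leading genes were Bbs2 at 0.80 and Copg2, Krt16 and Spast at 0.74, then 4930430F08Rik, Zfp493, Ddx24, Lipt1, Aida and Fech.

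The promoters of 4 of these genes are shown because their levels moved together across tumours, and that of Slc4a1 is not shown. Each is the 250 bases before the transcription start in RefSeq annotation of GRCm38.p6, 5′ to 3′ on the gene's own strand, with capitals for the motifs searched. The motifs were searched on both strands. The first was AGATAA, a motif of the blood transcription factor Gata1 and its relatives, called the Gata1 motif here. The second was CCACACCC, bound by Krüppel-like factors such as Klf1, called the Klf1 motif. The third was CCAAT, a promoter element common to many genes. The fourth was TATAAA, which marks where transcription machinery assembles. The fifth, a variant of the fourth, was ATAAAA.
Hbb-bs: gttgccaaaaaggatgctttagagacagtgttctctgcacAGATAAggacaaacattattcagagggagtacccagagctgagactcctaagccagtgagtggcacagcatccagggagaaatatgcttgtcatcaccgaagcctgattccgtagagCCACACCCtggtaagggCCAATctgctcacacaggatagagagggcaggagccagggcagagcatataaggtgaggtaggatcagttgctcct
Hbb-bt: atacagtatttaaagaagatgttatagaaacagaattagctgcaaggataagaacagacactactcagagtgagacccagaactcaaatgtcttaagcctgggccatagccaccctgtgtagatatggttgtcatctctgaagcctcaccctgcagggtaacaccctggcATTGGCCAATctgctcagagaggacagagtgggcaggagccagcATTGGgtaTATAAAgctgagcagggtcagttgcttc
Hba-a1: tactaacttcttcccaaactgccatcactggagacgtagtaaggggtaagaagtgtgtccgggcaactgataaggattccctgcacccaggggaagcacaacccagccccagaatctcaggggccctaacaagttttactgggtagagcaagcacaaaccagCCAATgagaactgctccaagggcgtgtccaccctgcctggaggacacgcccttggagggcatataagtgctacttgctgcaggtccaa
Alas2: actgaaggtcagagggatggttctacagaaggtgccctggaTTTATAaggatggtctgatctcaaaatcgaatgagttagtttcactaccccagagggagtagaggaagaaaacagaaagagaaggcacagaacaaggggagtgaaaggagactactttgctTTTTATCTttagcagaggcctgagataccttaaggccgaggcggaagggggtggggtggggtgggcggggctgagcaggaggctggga
The Hbb-bs window is chr7:103827929-103828178 on the minus strand and holds the Gata1 motif 210 bases before the start, the Klf1 motif 93 bases before it and the third motif, CCAAT, 76 bases before it. The Hbb-bt window is chr7:103813924-103814173 on the minus strand and holds CCAAT 3 times, on either strand, and TATAAA 28 bases before the start. The Hba-a1 window, chr11:32283422-32283671 on the plus strand, holds CCAAT 88 bases before the start. The Hba-a2 window is not shown since it repeats that of Hba-a1, shifted by 3 bases, with 297 of 297 overlapping bases identical when the 50 bases after the start are counted in. The Alas2 window, chrX:150547167-150547416 on the plus strand, holds on its minus strand the fourth motif 209 bases before the start, the Gata1 motif at 86 bases and the fifth motif at 88 bases, these last overlapping each other. Of 27025 promoter windows of this length, 10.3% held the Gata1 motif, 3.19% the Klf1 motif, 34.5% the third motif, 13% the fourth and 17.6% the fifth. A match is a run of letters and not a measured binding site.

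No globin or erythroid gene passed the test between the groups, and the lower fitted levels of the globins and Alas2 under anti-PD-1 rested on IgG2a replicates 3 and 7. With all 16 tumours the mean of Hbb-bs was 31.6 ± 18.1 CPM in anti-PD-1 tumours, against 1209 ± 3224 CPM in IgG2a tumours (± is the SD of 8). Its log2 fold change was -5.26 ± 1.46 (SE). The other globins had log2 fold changes of -5.08 for Hbb-bt, -4.68 for Hba-a1 and -4.91 for Hba-a2, with -5.46 for Alas2 and -4.24 for Slc4a1. By edgeR's quasi-likelihood test with Benjamini-Hochberg adjustment over 16154 genes the adjusted p was 0.434 for each of the 6, and 0.0% of all genes passed. At an unadjusted p under 0.05 in the same test 6 of 6 genes were lower under anti-PD-1, against 7.9% of all genes. The median log2 fold change was -5.00 over the 6 genes and -0.05 over all genes tested. Outside IgG2a replicates 3 and 7 the globin level was 44.2 to 186 RPM in anti-PD-1 tumours and 37.4 to 215 RPM in IgG2a tumours, so the groups overlapped.

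Without IgG2a replicate 7 the log2 fold change of Hbb-bs was -1.14 ± 0.63 (SE), with an edgeR adjusted p of 0.558, and that of Hbb-bt -0.99. For Hba-a1 it was -0.75, for Hba-a2 -0.88, for Alas2 -1.04 and for Slc4a1 -1.71 ± 0.79 (SE). Slc4a1 alone stayed at an unadjusted edgeR p under 0.05, at 0.0469, so 1 of 6 genes did, against 3.41% of all genes in that direction. Without IgG2a replicates 3 and 7, an alternative added after the data were seen, the log2 fold change was -0.04 ± 0.45 (SE) for Hbb-bs, -0.07 for Hbb-bt, 0.35 for Hba-a1, 0.19 for Hba-a2 and -0.15 for Alas2. Slc4a1 was then at -1.68 ± 0.83 (SE) with an unadjusted edgeR p of 0.0597. At an unadjusted edgeR p under 0.05, 0 of 6 genes were lower under anti-PD-1, against 7.3% of all genes in that direction. In those 14 tumours the mean of Hbb-bs was 31.6 ± 18.1 CPM in anti-PD-1 tumours (SD of 8), against 32.4 ± 24.1 CPM in IgG2a tumours (SD of 6). Over the 6 genes the median log2 fold change was -1.01 without IgG2a replicate 7 and -0.06 without both tumours. The high Slc4a1 of IgG2a replicate 8 remained in each of these comparisons.

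**Figure D2:**
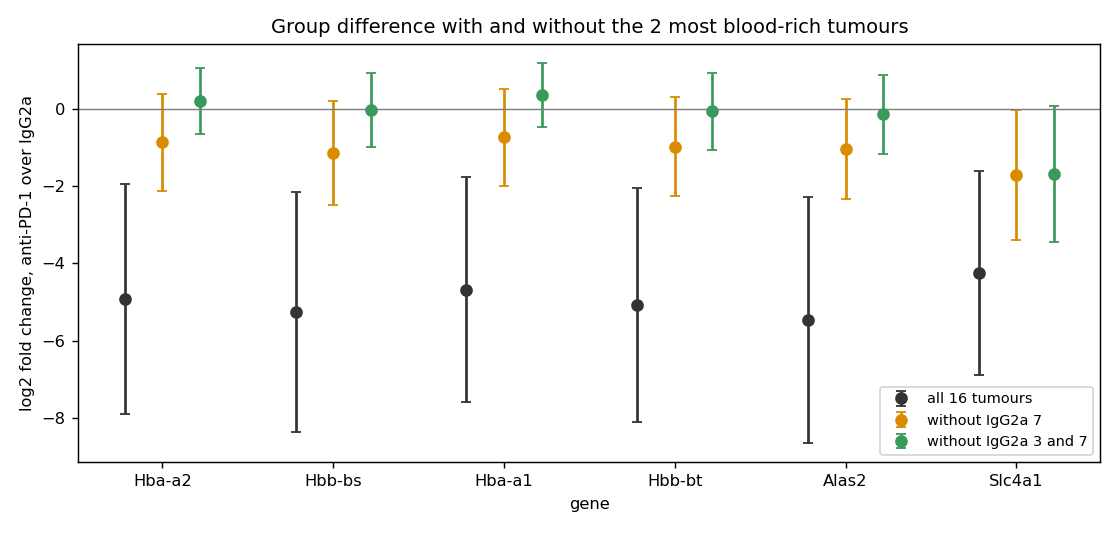
Log2 fold change of each gene, anti-PD-1 over IgG2a, from edgeR, with bars for 95% intervals, over all 16 tumours (black), without IgG2a 7 (orange) and without IgG2a 3 and 7 (green). For Hbb-bs the values were -5.26, -1.14 and -0.04, and Slc4a1 alone stayed below -1 in all 3 settings.

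Alpha and beta globin reads were near one fixed ratio in the IgG2a tumours and spread more widely in the anti-PD-1 tumours. The alpha and beta sums came out as whole numbers within 0.01 read in 16 of 16 tumours. In sequences of the GENCODE vM21 annotation the alpha and beta transcripts share no stretch of 31 bases. Reads were thus divided among the paralogs of a kind and not between kinds. The alpha over beta ratio was 1.402 in the lowest, 1.58 at the median and 3.12 in the highest anti-PD-1 tumour, against 1.31, 1.41 and 1.58 in the IgG2a tumours. Anti-PD-1 replicates 5, 6, 1 and 4, at 3.12, 2.51, 2.21 and 1.71, lay above every IgG2a tumour, and the other 4 lay within their range. Alpha made up 75.7% of 2853 globin reads in anti-PD-1 replicate 5, with a 95% Wilson interval of 74.1 to 77.2%. It made up 71.5% of 10706 reads in anti-PD-1 replicate 6 (70.7 to 72.4%) and 68.9% of 5465 reads in anti-PD-1 replicate 1 (67.6 to 70.1%). The highest share in an IgG2a tumour was 61.3% in replicate 2 (60.0 to 62.5%), and IgG2a replicate 7 had 56.7% of 1574414 reads. These intervals cover counting error only. The mean log2 ratio was 0.86 ± 0.45 in anti-PD-1 tumours, against 0.51 ± 0.09 in IgG2a tumours (± is the SD of 8), and the difference was 0.36 ± 0.16 (SE). A two-sided exact permutation test gave p = 0.0409, and 0.123 after adjustment over the 3 globin ratios tested, so the difference did not pass. Of the 8 anti-PD-1 tumours 7 were above the IgG2a median. Without IgG2a replicate 7 the exact permutation p was 0.0822, and without any of anti-PD-1 replicates 1, 4, 5 and 6 or IgG2a replicates 1, 3, 4, 5, 6 and 8 it was 0.0508 to 0.0763. Anti-PD-1 replicate 6 is the tumour with the fewest transcripts detected, and anti-PD-1 replicate 5 had a skeletal muscle score 4.29 and an adipocyte score 1.77 log2 units above the median of all tumours. IgG2a replicate 3, at a ratio of 1.42, had these scores 11.7 and 2.57 units above the median, and IgG2a replicate 7, at a ratio of 1.31, had its adipocyte score 7.20 units above. The part of these features in the ratio was not tested.

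The division of reads between the paralogs was less certain than the sums. The coding transcripts share many runs of 31 bases. Of those in the coding Hba-a2 transcript 91.0% also occur in Hba-a1, and of those in the Hbb-bt transcript 59.4% also occur in Hbb-bs. The runs were counted in sequences of the GENCODE vM21 annotation. There the longest coding transcript of Hbb-bs has 628 bases, against 778 in the deposited tables, so the beta share is approximate. Hbb-bt took 9.99 to 27.4% of beta globin reads under anti-PD-1 and 15.1 to 22.9% under IgG2a, the lowest in anti-PD-1 replicate 1 and the highest in anti-PD-1 replicate 6. Its mean share was 17.5 ± 5.40% in anti-PD-1 tumours, against 18.4 ± 2.81% in IgG2a tumours (SD of 8), and the exact permutation p was 0.682 before and after adjustment. Hba-a1 took 32.6 ± 4.65% of alpha globin reads in anti-PD-1 tumours, against 30.2 ± 2.37% in IgG2a tumours (SD of 8), with an exact permutation p of 0.213, adjusted 0.32. Neither share passed the permutation test between the groups. Within Hba-a1 a transcript annotated as a retained intron took 53.8 to 86.5% of reads, while its counterpart in Hba-a2 had 0 reads in all 16 tumours. The shortest coding transcript of Hbb-bs had reads in 8 of 16 tumours. The ratio in TPM, which depends on transcript length, was 1.93 to 4.35 in the 8 tumours with no reads in that transcript and 1.41 to 2.15 in the 8 with them. In TPM the log2 alpha over beta difference was 0.33 with an exact permutation p of 0.153.

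**Figure D3:**
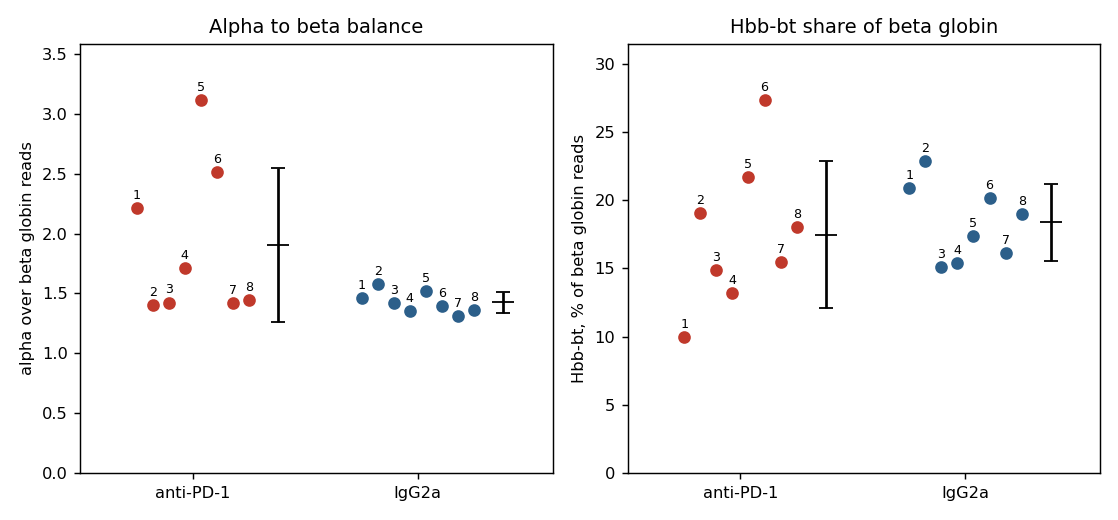
Left, alpha over beta globin reads, and right, Hbb-bt as a percentage of beta globin reads, in each tumour (replicate numbers beside the points), anti-PD-1 left of IgG2a, with black bars for mean ± SD. IgG2a tumours lie between 1.31 and 1.58 on the left, where anti-PD-1 replicates 1, 4, 5 and 6 lie above them.

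Alas2 kept close to the globins in all tumours, and Slc4a1 did not. Set against the globins, Alas2 had 4.67 to 15.4 reads per 1000 globin reads under anti-PD-1 and 6.94 to 15.9 under IgG2a while globin ran from 37.4 to 24148 RPM. IgG2a replicate 7 had 15.1 (exact Poisson 95% interval 14.95 to 15.34), inside the range of the others, and anti-PD-1 replicate 6 was the lowest at 4.67 (3.47 to 6.16). Slc4a1 had 0 to 7.32 reads per 1000 globin reads under anti-PD-1 and 0.51 to 23.9 under IgG2a. The highest was IgG2a replicate 8 at 23.9 (20.8 to 27.3), against 1.14 (1.09 to 1.20) in IgG2a replicate 7 and 0.96 (0.74 to 1.23) in IgG2a replicate 3. The 2 tumours richest in globin were thus among the low ones in Slc4a1 per globin read. Rhag, the Rh-associated glycoprotein of the red cell membrane, chosen after its values were seen, had 24 reads in IgG2a replicate 8, 15 in IgG2a replicate 7 and at most 4 elsewhere. The genes named next were also chosen after their values were seen, apart from Epb41. Of 19 red cell membrane genes 10 were highest in IgG2a replicate 8 among the 14 tumours other than IgG2a replicates 3 and 7, among them Sptb, Epb41, Epb42, Rhag, Kel, Ermap, Add2 and Tspo2. Of all 27137 genes with reads in these tumours 6.72% were highest there. Of 14 erythroid regulators 3 were highest there, Gata1, Hemgn and Trim58, and of 12 haem synthesis genes 0. Several of these leads were small or rested on few reads. Kel had 4 reads there, against at most 3 in the other 13 of these tumours, Trim58 6 against 2 and Tspo2 9 against 2. Gata1 had 22 against 18, Sptb 133 against 120 and Epb41 5895 against 5612. Leads were wider in Epb42, at 39 against 18, and Ermap, at 49 against 22. Endothelial markers were not high in IgG2a replicate 8, 0 of 22 being highest there.

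In the globin-rich IgG2a replicate 7 the globins, Alas2 and Slc4a1 stood far above the other tumours, and most genes of the other erythroid lists did not. Against the median of the other 15 tumours, 6 of 6 globin and erythroid genes were more than 8-fold higher, against 8.78% of the 16154 genes tested. The tumour was picked by its globin share, so the height of the globins in it follows from that choice and is no separate result. Alas2 was 404-fold higher, Hbb-bs 390-fold, Hba-a2 322-fold, Hbb-bt 253-fold, Hba-a1 227-fold and Slc4a1 103-fold. Alas2 ranked 13 and Slc4a1 108 among all genes in that tumour. Of the 12 haem synthesis genes 0 were more than 8-fold higher, at a median of 0.92-fold. Among the most abundant, Fech was 2.50-fold, the housekeeping enzyme Alas1 1.51-fold, the mitochondrial iron carrier Slc25a37 0.74-fold and Alad, the enzyme after Alas1, 0.47-fold the median. Of 12 tested red cell membrane genes 2 were more than 8-fold higher, Xk and Dmtn. The water channel Aqp1 was 5.46-fold, the skeleton protein Epb41 3.13-fold, Gypc 0.82-fold and the urea channel Slc14a1 0.25-fold. Of 9 erythroid regulators 2 were more than 8-fold higher, Tal1 and Epor. Lmo2, a partner of Tal1, was 7.5-fold, the transferrin receptor Tfrc 0.26-fold and Klf1, an activator of the beta globin genes, 0.30-fold, with 5 reads. Of 14 late maturation genes, at a median of 2.55-fold, 4 were more than 8-fold higher, among them Tent5c at 14.6-fold, Car2 at 13.6-fold and Bpgm, which makes the regulator of oxygen binding, at 11.5-fold. Xk, Dmtn, Tal1, Epor, Klf1, Tent5c, Car2 and Bpgm were named after their values were seen.

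Other tissues were also high in IgG2a replicate 7. More than 8-fold higher were 13 of 13 adipocyte markers, at a median of 278-fold, 14 of 22 endothelial markers at 12.3-fold, 7 of 10 pericyte and smooth muscle markers at 13.8-fold and 5 of 7 tested platelet markers at 10.2-fold. Marrow granulocyte markers (1 of 9) and skeletal muscle markers (1 of 10) were mostly near the other tumours. The summed endothelial level was 488 to 772 CPM under anti-PD-1 and 487 to 3560 CPM under IgG2a, and no endothelial marker was at 0 in every tumour. The part of these tissues in the levels of the globins and of the other erythroid lists was not tested. In IgG2a replicate 3, 4 of the 6 globin and erythroid genes were more than 8-fold above the other tumours, against 2.66% of all genes, at a median of 8.71-fold. That tumour had 10 of 10 tested skeletal muscle markers more than 8-fold higher, at a median of 5049-fold, 4 of 13 adipocyte markers, at a median of 6.46-fold, and 0 of 22 endothelial markers. Mb, the oxygen store of muscle and a relative of the globins, had 18061 reads there and 1 to 64 in the other 15 tumours. Sptb and Ank1, which red cells and muscle share and which were named after their values were seen, had 5764 and 7106 reads there. In IgG2a replicate 8, 1 of 6 genes was more than 8-fold higher, Slc4a1, against 0.0619% of all genes. Replicates 7 and 3 were described for their globin and replicate 8 for its Slc4a1. The counts of the 6 genes in these tumours thus restate those values in part.

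**Figure D4:**
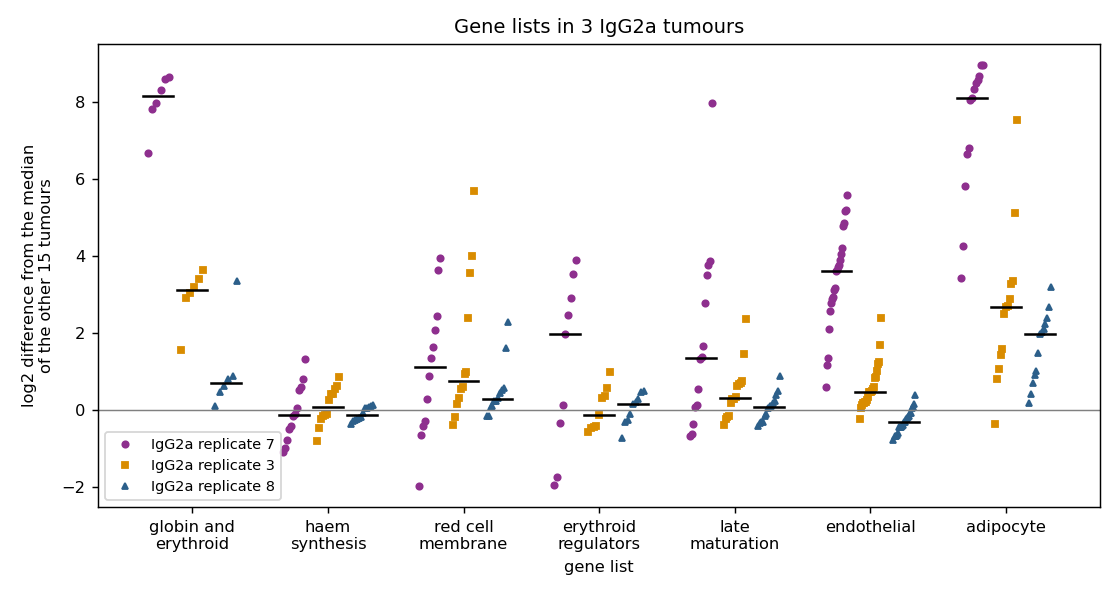
Log2 difference of each tested gene from the median of the other 15 tumours, by gene list, in IgG2a replicates 7, 3 and 8, with black lines for list medians. In replicate 7 the globin and erythroid genes lie with the adipocyte markers at medians of 8.16 and 8.12, and the haem synthesis genes near 0.

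Globin levels and endothelial genes were related through IgG2a replicates 7 and 3. The endothelial score, the mean log2 CPM of 22 markers, was 3.17 to 4.05 under anti-PD-1 and 3.24 to 6.91 under IgG2a, where replicate 7 had 6.91 and replicate 3 had 4.11. Adjusted values are over the 12 relations computed for the same set of tumours. Hbb-bs log2 CPM and the score had Pearson's r = 0.85 over 16 tumours (permutation p = 0.0131, adjusted 0.0252) and Spearman's rho = 0.34 (permutation p = 0.203, adjusted 0.476). Without IgG2a replicate 7, which stands apart as its own cluster, r was 0.22 (permutation p = 0.425) and rho 0.19 (permutation p = 0.490). Without IgG2a replicates 3 and 7, the tumours farthest from the median of Hbb-bs, r was -0.30 (permutation p = 0.297) and rho 0.01 (permutation p = 0.988), so the relation rested on these tumours. Without IgG2a replicate 3 alone r was 0.86 with a permutation p of 0.0578. Within the anti-PD-1 tumours r was -0.55 (exact permutation p = 0.161, n = 8), and within the IgG2a tumours 0.95 (exact permutation p = 0.00501, n = 8), or 0.78 without replicate 7 (exact permutation p = 0.0401, adjusted 0.106, n = 7). Hbb-bt, Hba-a1, Hba-a2 and Alas2 had r of 0.84 to 0.89 over 16 tumours and -0.41 to -0.01 without IgG2a replicates 3 and 7. The adipocyte score gave like values, with r = 0.76 with Hbb-bs over 16 tumours (permutation p = 0.0147, adjusted 0.0252) and 0.19 without IgG2a replicate 7 (permutation p = 0.487).

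For Slc4a1 the relation was also present in ranks. With the endothelial score it had r = 0.80 (permutation p = 0.00331, adjusted 0.0237) and rho = 0.74 (permutation p = 0.00187, adjusted 0.0224) over 16 tumours. Without IgG2a replicates 7 and 8, the farthest from its median, r was 0.73 (permutation p = 0.00285, adjusted 0.0342) and rho 0.85 (permutation p = 0.00017, adjusted 0.00204). Without IgG2a replicate 7 alone r was 0.44 (permutation p = 0.0985) and rho 0.68 (permutation p = 0.00657, adjusted 0.0788). Within the anti-PD-1 tumours rho was 0.81 (exact permutation p = 0.0218, adjusted 0.262, n = 8), and within the IgG2a tumours 0.76 (exact permutation p = 0.0368, adjusted 0.110, n = 8). The relation held on ranks without the 2 farthest tumours, and rho did not pass after adjustment within either group. Pearson's r passed within the IgG2a tumours, at 0.82 (exact permutation p = 0.0294, adjusted 0.0392). Without replicate 7 it was 0.32 there (exact permutation p = 0.474, n = 7), with rho 0.64 (exact permutation p = 0.139). Within the anti-PD-1 tumours r was 0.65 (exact permutation p = 0.0776, adjusted 0.354). The relation rests on few reads, 0 to 62 per tumour outside IgG2a replicates 7 and 8. The difference between the relations of Slc4a1 and the globins was not tested.

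**Figure D5:**
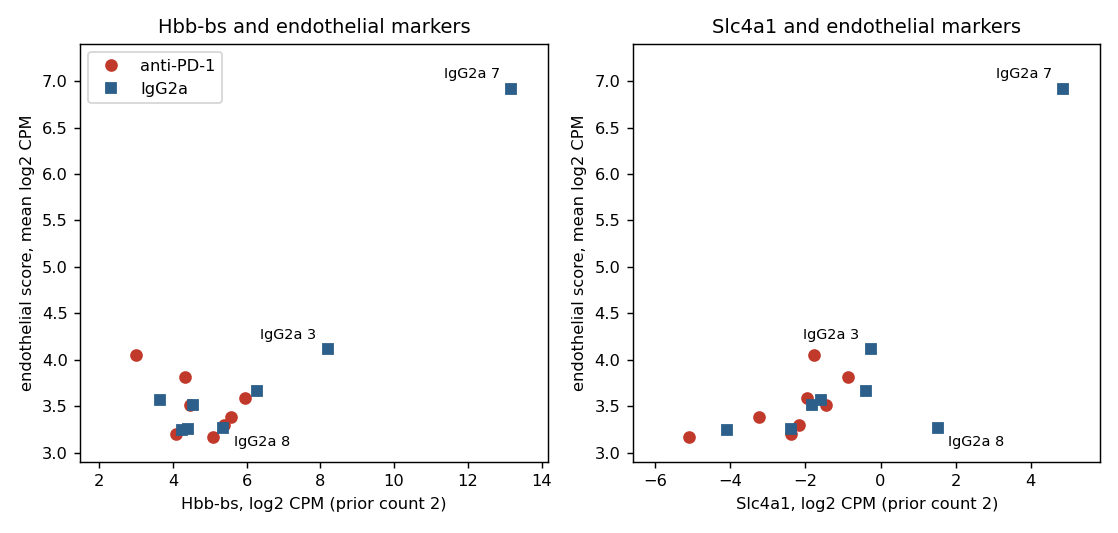
Endothelial score (mean log2 CPM of 22 markers) against log2 CPM of Hbb-bs (left) and Slc4a1 (right), with circles for anti-PD-1 tumours and squares for IgG2a tumours. IgG2a 7, at a score of 6.91, lies apart from all others in both panels.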

How the data were processed

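Poly(A) RNA of 8 anti-PD-1 and 8 IgG2a tumours was read with a non-directional kit, per the labels' protocols. The deposited tables hold estimated counts of reads per transcript and TPM, with transcript lengths as other columns, per the file headers. Per the submitters' processing notes GRCm38 was the build, and edgeR with limma were used. For the quantifier, its settings and its annotation, nothing is given in the sources used here. Of 115088 transcripts 114200 were matched to GENCODE vM21 and summed to 47311 genes, rounded, filtered with filterByExpr (minimum count 10, minimum total 15), scaled by TMM and tested with edgeR 4.0.16 (robust quasi-likelihood) in R 4.3.3, with Benjamini-Hochberg adjustment over 16154 genes. Log2 CPM used a prior count of 2. The test was also run on simulated data with known changes, drawn without an outlying tumour, and its recovery is not reported here. Ratios were compared by exact permutation over 12870 assignments, and correlations by 100000 permutations, or exactly within groups. Alternatives were other scalings and filters, DESeq2 1.42.0, limma 3.58.1 and tumours left out. The members and lists were chosen with earlier results of these data known. Members were described in full. Of each list up to 4 genes with the highest mean CPM were named where described, as were the 10 genes most like Hbb-bs in Spearman's rho. Genes outside this rule are said to be chosen after their values were seen. Some genes of the lists are counted but not reported by name here.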

Additional observations from a re-analysis of the deposited data

Results flagged for a closer look

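In IgG2a replicate 7 all 6 genes lay far outside the other 7 IgG2a tumours: Hbb-bs at 9185 CPM with the next tumour at 293, Hbb-bt at 1770, Hba-a1 at 4153, Hba-a2 at 10215, Alas2 at 383 and Slc4a1 at 29.0 CPM. The globin share of that tumour, 2.41% of reads, and its endothelial score of 6.91 were likewise far from the others. IgG2a replicate 8 had 23.9 Slc4a1 reads per 1000 globin reads, with the next IgG2a tumour at 8.14. A value was singled out when its gap to the nearest tumour, divided by the range of its group of 8, was above Dixon's critical value of 0.526. Of 24 groups of values looked at 9 had such a tumour, where chance gives about 1 in 20, and 8 of the 9 are the same tumour read through genes that move together.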

How the results depend on the processing

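The adjusted p of the 6 genes stayed above 0.05 in every alternative run, but sign and size depended on the tumours and weights used. With sample quality weights in limma-voom the log2 fold change was 0.072 for Hbb-bs, 0.24 for Hba-a1 and 0.14 for Hba-a2. Without IgG2a replicates 3 and 7 it was 0.35 for Hba-a1 and 0.19 for Hba-a2, and leaving out anti-PD-1 replicate 6 too made these 0.10 and 0.032. The mean log2 globin share then differed by 0.16 without IgG2a replicates 3 and 7, against -1.27 over all 16. DESeq2 called 4 genes where edgeR called 0, with 560 higher and 1276 lower at an unadjusted p under 0.05, and none of the 6 was among the 4. By DESeq2 Hbb-bs was at -1.04. The log2 alpha over beta difference was 0.34 (exact permutation p = 0.0822) without IgG2a replicate 7, 0.34 (0.106) without IgG2a replicates 3 and 7, 0.27 (0.196) with anti-PD-1 replicate 6 left out too, and 0.33 (0.153) in TPM. Leaving out each tumour in turn it was 0.25 to 0.41, the Hbb-bt share difference -2.32 to 0.16 percentage points, Pearson's r of Hbb-bs with the endothelial score 0.22 to 0.92 and the log2 fold change of Hbb-bs -5.47 to -1.14. That r was 0.22 without IgG2a replicate 7 and -0.30 without the 2 farthest tumours. The tumours left out are the cause by construction in these last cases, and for the weights and DESeq2 the cause was not tested. Few Slc4a1 reads limit its values. No paired analysis was possible because the labels give animal numbers only, and the replicate numbers used here follow accession order and tie no tumour of one group to a tumour of the other.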

Other observations

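Genes that handle free haemoglobin and haem were read in the same tumours. In IgG2a replicate 7, 2 of 12 were more than 8-fold above the median of the other tumours, where 8.78% of all genes were. Hp, which encodes haptoglobin, the plasma binder of haemoglobin, was 117-fold higher, and Cd163, the macrophage receptor for that complex, 75.0-fold, both named after their values were seen. The most abundant of the list were near the other tumours, the ferritin chains Fth1 at 0.81-fold and Ftl1 at 2.56-fold, the receptor Lrp1 at 1.64-fold and the haem-degrading enzyme Hmox1 at 1.19-fold. Cygb, a globin of fibroblasts and related cells, was 38.8-fold higher there. Mouse adipocytes also make Hp, and 13 of 13 adipocyte markers were more than 8-fold higher in the same tumour. The part of these cells in the level of Hp was not tested.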
